A study of Mus musculus with 20 samples.

Results

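Melanin is made in melanosomes, organelles related to lysosomes, and 10 genes of that lineage, of 27916 gene columns used, were followed through 4 single-cell RNA libraries of mouse tumour infiltrates. The genes were fixed by name, with earlier results of these data known. They were the melanosome proteins Mlana and Pmel, the pigment enzymes Tyr, Tyrp1 and Dct, and the transporters Slc45a2 and Slc24a5. Also among them were the transcription factors Mitf and Sox10 and the glycoprotein Gpnmb. CD8 T cells carrying the OT-I receptor, which recognises an ovalbumin peptide, were given to mice with tumours of B16-OVA, a mouse melanoma line made to express ovalbumin, and tumour-infiltrating cells were collected 8 days later. The donors of the T cells were wild-type OT-I mice or OT-I mice crossed to Tet2-/-, and each genotype was taken with and without anti-PD-L1, an antibody that blocks a ligand of PD-1, an inhibitory receptor of T cells. The 4 libraries are called WT untreated, WT treated, KO untreated and KO treated below, where treated means given the antibody. All 4 groups share the tumour line, the receptor and the day. The genotype is that of the transferred T cells, and the names WT and KO are those of the labels. Tet2, the targeted gene, stood at 13.4 CPM (10.4 to 17.1) in CD8 T-like cells of WT untreated, 15.7 (13.1 to 18.7) in WT treated, 23.1 (19.9 to 26.7) in KO untreated and 17.9 (15.1 to 21.1) in KO treated, so it was not lower in either library labelled knockout. Which stretch of Tet2 the knockout lacks is not in the labels, and tags from the 3′ end can lie outside it, so these levels do not check the labels.

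Each group was 1 library, so nothing here has a replicate and no difference between groups was tested. Levels are CPM, the UMIs of a gene summed over the cells of a class in a library and scaled to the total UMIs of those cells. Intervals are 95% intervals for counting error only, and a difference between groups is a difference between 2 libraries. The labels give neither the number of mice behind a library nor how the tumours were dissociated and sorted. The source is labelled CD8+ TILs, yet each library held cells with high levels of the pigment genes and macrophage-like cells. The libraries held 11835704 to 16209103 UMIs (unique molecular identifiers, which mark separate captured molecules). Pairs of libraries had 1 to 10 cell barcodes in common, 0 of them in the melanoma cells described here. The remaining 16 samples of the series were not analysed here.

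In pigment cells, MITF is the factor that switches on most of the pigment program, and it acts together with SOX10. Its recognition sequence in pigment gene promoters, the M-box, holds the core CATGTG. TYR, TYRP1 and DCT work on tyrosine and its products inside the melanosome. PMEL forms the fibrils on which melanin is laid down, and MLANA is needed for PMEL processing. SLC45A2 and SLC24A5 set the ion balance of the melanosome. GPNMB is a relative of PMEL that macrophages also make, as they do MITF.

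The windows before the start sites are shown because they hold a feature that several of the genes share and that was not used to choose them. RefSeq promoter windows (GRCm38.p6, 250 bases before to 50 bases after the start) were found for 6 of the 10 genes. The 7 bases TCATGTG, searched on both strands (CACATGA on the other), occurred in the windows of 4 of them: Dct, Tyrp1, Tyr and Slc24a5. The RefSeq gene span of Tyrp1 begins before its window's start site, so its stretch lies upstream of that later start but inside the gene span. Of all 32851 windows of that length, 3.77% held the 7 bases, and 14.2% held the core CATGTG on either strand. These shares count windows, whereas the 4 of 6 above counts genes. The window of Gpnmb and the 3 windows of Mitf did not hold these letters, and for Mlana, Pmel, Slc45a2 and Sox10 no window was searched. A match is a description of letters, and binding was not measured. Capitals mark the 7 bases on either strand, each sequence runs 5′ to 3′ on the gene's strand, and positions count back from the base before the start site as -1.

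Tyr, the 250 bases before the start, chr7:87493513-87493762, minus strand, match at -22: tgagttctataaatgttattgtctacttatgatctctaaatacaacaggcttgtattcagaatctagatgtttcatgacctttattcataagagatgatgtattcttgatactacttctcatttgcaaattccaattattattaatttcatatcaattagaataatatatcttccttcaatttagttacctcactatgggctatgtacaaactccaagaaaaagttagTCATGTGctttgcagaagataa
Tyrp1, 30 bases around the match, chr4:80834155-80834184, plus strand, match at -47: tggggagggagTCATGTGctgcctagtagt
Dct, the 250 bases before the start, chr14:118052247-118052496, minus strand, matches at -232 and -151: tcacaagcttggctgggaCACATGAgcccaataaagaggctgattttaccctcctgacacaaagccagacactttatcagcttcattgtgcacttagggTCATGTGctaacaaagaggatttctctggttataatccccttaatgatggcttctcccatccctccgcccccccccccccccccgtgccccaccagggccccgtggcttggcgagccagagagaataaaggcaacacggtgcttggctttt
Slc24a5, the 250 bases before the start, chr2:125067877-125068126, plus strand, match at -13: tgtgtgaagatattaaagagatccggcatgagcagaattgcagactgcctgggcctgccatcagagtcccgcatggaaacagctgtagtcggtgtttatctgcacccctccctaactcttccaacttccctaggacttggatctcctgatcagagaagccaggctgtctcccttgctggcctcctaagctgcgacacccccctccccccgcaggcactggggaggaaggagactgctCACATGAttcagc

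Melanoma cells were taken as cells with at least 20 UMIs of Mlana, Pmel, Dct and Tyrp1 together, here called gated cells. WT untreated held 922 gated cells of 2297 kept cells, which is 40.1% (exact Clopper-Pearson interval 38.1 to 42.2). WT treated held 70 of 1603, or 4.37% (3.42 to 5.49). KO untreated held 189 of 2221, or 8.51% (7.38 to 9.75), and KO treated held 50 of 1277, or 3.92% (2.92 to 5.13). The gated share was thus highest in WT untreated, and the intervals of both anti-PD-L1 libraries overlapped. Dissociation and sorting can set these shares.

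The threshold fell in a gap. Gated cells had a median of 154, 383, 178 and 483 UMIs of the 4 genes, in the order WT untreated, WT treated, KO untreated and KO treated, which is kept below wherever 4 values follow each other. Just inside it, at 20 to 29 UMIs, lay 10, 1, 3 and 0 cells, and just outside, at 10 to 19, lay 5, 0, 2 and 0. Clusters made from all cells without the 10 genes put 921, 69, 189 and 50 of the gated cells into 2 clusters whose markers were melanoma-like. The marker list that named these clusters holds Mlana, Pmel, Dct, Tyrp1, Tyr, Slc45a2, Slc24a5 and Sox10. Their name is therefore not independent of the gate. Of the gated cells 18, 3, 6 and 2 had at least 3 UMIs of CD3 and CD8 genes and 11, 1, 2 and 3 had at least 3 UMIs of C1q genes, and doublets were not removed. Median depth of gated cells differed, at 10222, 25554, 14016 and 31762.5 UMIs per cell.

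Levels below are CPM in gated cells. All 10 genes together made up 1.93% of the UMIs of gated cells in WT untreated, 2.19% in WT treated, 2.04% in KO untreated and 2.16% in KO treated. The total was therefore of similar size in the libraries, while single genes shifted in different directions. Mlana, Pmel, Dct and Tyrp1 were used in the gate, so their levels in gated cells are a description. The genes were called different where the mean over libraries was at least 20 CPM, which all 10 passed, and 2 libraries differed at least 1.5-fold.

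**Figure D1:**
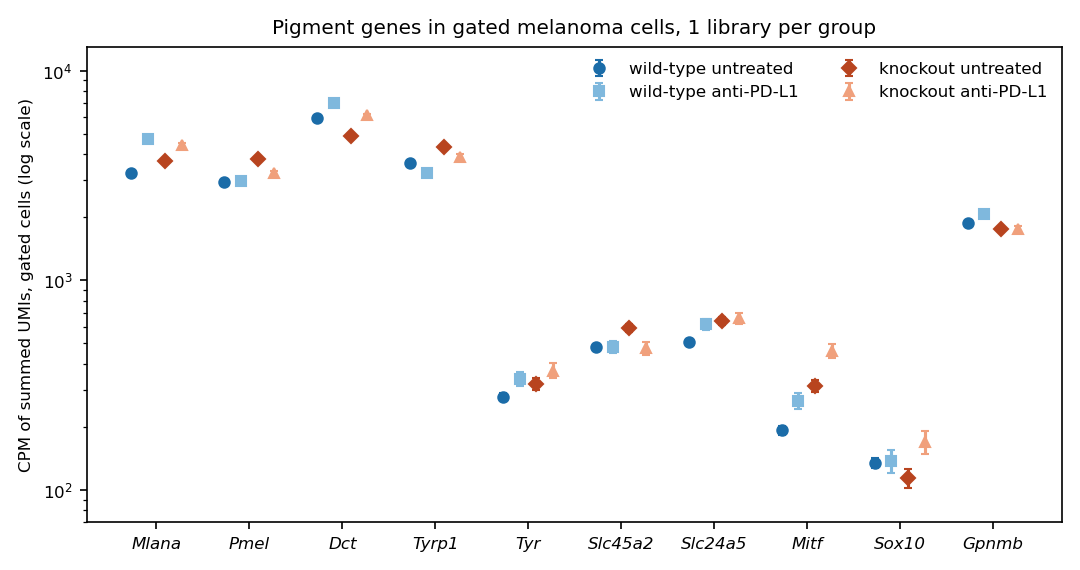
Level of each pigment gene in gated cells of the 4 libraries, as CPM of summed UMIs on a log axis, with 95% Poisson intervals for counting error (many are smaller than the symbol). Mitf is the gene whose libraries spread most, from 192 CPM in WT untreated to 461 CPM in KO treated.

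Of the melanosome proteins, Mlana (chromosome 19, 29697541 to 29708447, GRCm38.p6) stood at 3250 CPM in WT untreated, 4727 in WT treated, 3698 in KO untreated and 4432 in KO treated. It was higher in both anti-PD-L1 libraries than in the untreated library of the same genotype. The log2 folds were 0.54 (0.51 to 0.57) in wild-type and 0.26 (0.22 to 0.30) in knockout, and neither reached 1.5-fold. Over the alternatives the wild-type fold ranged from log2 0.49 to 1.05, so it passed 1.5-fold in some of them. In knockout the sign turned, to -0.14, when cells needed at least 1000 genes and at most 5% mitochondrial UMIs. Pmel (chromosome 10, 128695888 to 128720238) stood at 2962, 2994, 3777 and 3247 CPM. KO untreated was highest for Pmel, and both wild-type libraries overlapped within counting error. Cdk2 lies within the Pmel locus over 7114 bases and stood at 320, 328, 349 and 391 CPM. In WT treated a single cell held 15.9% of all Pmel UMIs, and in that library the median gated cell had 2087 CPM.

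Among the enzymes, Tyr, which carries out the first step of melanin synthesis (chromosome 7, 87424771 to 87493512), stood at 278, 340, 321 and 371 CPM. WT untreated was lowest, and the intervals of the other libraries overlapped their neighbours in that order. Tyrp1 (chromosome 4, 80834123 to 80851736) stood at 3639, 3252, 4336 and 3895 CPM. It was higher in knockout than in wild-type both without treatment (log2 0.25, 0.22 to 0.28) and with it (log2 0.26, 0.21 to 0.31). Dct, dopachrome tautomerase (chromosome 14, 118012790 to 118052246), stood at 5989, 7053, 4886 and 6127 CPM. Its order was the opposite one, with knockout below wild-type by log2 -0.29 (-0.32 to -0.27) without treatment and -0.20 (-0.24 to -0.17) under it. None of these enzyme differences reached 1.5-fold.

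The transporter Slc45a2 (chromosome 15, 11000721 to 11029233) stood at 482, 482, 592 and 474 CPM. KO untreated was highest, and the other 3 libraries did not differ beyond counting error. Slc24a5, an exchanger of potassium, sodium and calcium (chromosome 2, 125068127 to 125088677), stood at 509, 617, 639 and 661 CPM. WT untreated was lowest, and the other 3 overlapped. Gpnmb (chromosome 6, 49036518 to 49058182) stood at 1888, 2073, 1755 and 1757 CPM, with both knockout libraries lowest and overlapping within counting error. The genotype fold of Gpnmb was log2 -0.11 untreated, and 0.08 with the stricter cell filter.

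Mitf (chromosome 6, 97807002 to 98021360) was the only one of the 10 genes to pass 1.5-fold, and it did so in both comparisons of genotype. With the stricter cell filter Pmel also passed for genotype untreated, at log2 0.76. Mitf stood at 192 CPM (184 to 201) in WT untreated, 265 (243 to 289) in WT treated, 313 (294 to 334) in KO untreated and 461 (428 to 495) in KO treated. No neighbours in this order overlapped. Knockout over wild-type was log2 0.70 (0.59 to 0.82) without treatment and 0.80 (0.63 to 0.96) with anti-PD-L1. These 2 comparisons share no library, whereas each shares a library with both comparisons of treatment. Anti-PD-L1 over untreated was log2 0.46 (0.32 to 0.61) in wild-type and 0.56 (0.41 to 0.70) in knockout, under 1.5-fold in both.

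The background for these calls was large. Of 5504 genes past the floor, 10.8% differed at least 1.5-fold between knockout and wild-type untreated (6.47% higher and 4.32% lower in knockout), and 15.4% did so under anti-PD-L1 (6.74% higher and 8.7% lower), so 1 of 10 members in each is near or below the share over all genes. For treatment the background was 6.41% in wild-type (3.56% higher and 2.85% lower) and 7.21% in knockout (2.71% higher and 4.51% lower), against 0 of 10 members. With TMM scaling factors the calls for genotype untreated went from 356 higher and 238 lower to 248 and 433, those for treatment in wild-type from 196 and 157 to 158 and 196, and those for treatment in knockout from 149 and 248 to 181 and 198. For genotype under anti-PD-L1 the calls were 371 higher and 479 lower, 609 and 449 with the stricter cell filter, and 486 and 451 with the mean over cells. The median fold of the 10 genes was log2 0.23 for genotype untreated, where that of all genes was 0.00. It was 0.11 for genotype under anti-PD-L1 (all genes -0.02), 0.19 for treatment in wild-type (all genes -0.02) and 0.13 for treatment in knockout (all genes -0.06). Just outside 1.5-fold lay Sox10 (1.49-fold) and Mitf (1.47-fold) for treatment in knockout and Mlana (1.45-fold) for treatment in wild-type, and just inside lay Mitf for genotype untreated (1.63-fold).

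Mitf was also described at equal depth per cell, where cells of 1 library are not replicates. Gated cells with at least 5000 UMIs were thinned to that number, which left out 90, 15, 22 and 0 shallower cells. At least 1 Mitf UMI was found in 58.2% of 832 thinned cells in WT untreated and 70.9% of 55 in WT treated. The shares were 71.3% of 167 in KO untreated and 86.0% of 50 in KO treated. The mean per thinned cell was 1.06, 1.33, 1.60 and 2.46 UMIs. The single cell with most Mitf UMIs held 0.767%, 7.06%, 3.42% and 10.7% of them, and without that cell in each library the genotype folds were log2 0.68 and 0.73. Depth per cell moved with Mitf inside 1 library, with r of 0.53 between Mitf and total UMIs in WT treated, against 0.03, 0.21 and 0.12 in WT untreated, KO untreated and KO treated. The part of depth in the Mitf difference was not tested beyond the thinning above.

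Sox10, the neural crest factor that works beside MITF (chromosome 15, 79154913 to 79164490), stood at 134, 137, 114 and 169 CPM. Both wild-type libraries overlapped, and KO treated was highest. Its genotype folds had opposite signs, log2 -0.24 (-0.42 to -0.07) untreated and 0.30 (0.05 to 0.56) under anti-PD-L1, the latter at 0.01 with the other listing of the barcodes. The order of Sox10 over the libraries was therefore not that of Mitf.

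Other genes of the pathway were read from lists fixed with earlier results of these data known. Over all genes past the floor, 6.47% were higher and 4.32% lower in knockout without treatment, and 6.74% and 8.7% under anti-PD-L1. With anti-PD-L1, 3.56% were higher and 2.85% lower in wild-type, and 2.71% and 4.51% in knockout. The counts of the lists were not rerun with TMM scaling factors. Of the regulators upstream of or beside MITF, 5 of 15 passed the floor and 0 passed 1.5-fold in any comparison. They included Pax3, a factor acting on the Mitf promoter, at 150, 153, 178 and 178 CPM, and Mc1r, the melanocortin receptor, at 121, 99.3, 128 and 116 CPM. Of genes linked to MITF in pigment cells, 11 of 19 passed the floor, and 2 were higher in knockout in each genotype comparison, with 0 lower. Without treatment these were the receptor kinase Met (log2 0.79, 0.67 to 0.91) and the potassium channel gene Kcnj13, and under anti-PD-L1 the channel gene Trpm1 (log2 0.59, 0.46 to 0.72) and the coactivator gene Ppargc1a (log2 0.78, 0.58 to 0.99). Kcnj13, named after its values were seen, stood at 36.5, 188, 293 and 183 CPM. Median folds of this list were log2 0.45 and 0.25 for genotype.

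Of genes for melanosome structure and transport, 17 of 28 passed the floor. The counts of this list, and of the lists after it, stand beside the shares over all genes given above. In knockout over wild-type without treatment 2 were higher and 0 lower, namely Bace2, a protease that trims PMEL (log2 0.82, 0.72 to 0.92), and Myo5a, the motor that carries melanosomes (log2 0.99, 0.83 to 1.13). Under anti-PD-L1 4 were higher and 0 lower, namely Trpm1, Myo5a (log2 0.85, 0.60 to 1.10), Atp7a (log2 0.94, 0.38 to 1.51) and Hps3 (log2 0.79, 0.12 to 1.48). Myo5a, Atp7a and Hps3 were named after their values were seen. Trpm1 lay just inside 1.5-fold and is also in the list of genes linked to MITF. Among the 4 genes of highest level in the melanosome list, Cd63 was at log2 0.22 and -0.17 for genotype. Rab38 was at 0.01 and 0.18. Of the list for dedifferentiated melanoma 4 of 16 passed the floor, and Axl, a receptor kinase known from low-pigment melanoma, stood at 15.2, 40.05, 65.4 and 94.3 CPM. The other 3 genes of that list did not have this order. Cyr61 stood at 45.9, 22.9, 44.2 and 24.7 CPM and was lower with anti-PD-L1 in both genotypes (log2 -1.005 in wild-type and -0.84 in knockout), Tead1 was lower with it in knockout (log2 -0.61), and Jun was at log2 -0.27 and -0.09 for genotype. Cell cycle lists fell beside them: 7 of 17 G2/M genes and 2 of 17 S phase genes were lower in KO untreated than in WT untreated, and 14 of 17 of each list were lower in knockout under anti-PD-L1, with 0 higher. The part of the cell cycle in the Mitf difference was not tested.

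Other lists gave the setting of these values. Of 24 genes of MHC class I and the interferon response, all past the floor, 14 were higher and 0 lower in knockout without treatment, with a median of log2 0.64, and 5 were higher and 1 lower under anti-PD-L1. B2m, the shared light chain of MHC class I, stood at 4390, 5974, 7200 and 7896 CPM, and H2-D1, a heavy chain, at 924, 1560, 1625 and 1913 CPM. Of the lysosome list 18 of 20 passed the floor, and 0 passed 1.5-fold for genotype in either comparison, with Ctsb at 521, 558, 673 and 611 CPM. Of 17 glycolysis genes past the floor 9 were lower and 0 higher with anti-PD-L1 in wild-type, among them Ldha, at 3087, 1836, 1584 and 1642 CPM. In knockout 0 were lower and 2 higher with anti-PD-L1, Gapdh (log2 0.74) and Hk2 (log2 0.70, named after its values were seen), and under anti-PD-L1 5 were higher and 0 lower in knockout than in wild-type.

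Gated cells differed widely from each other in some of the genes and less in others. At 5000 UMIs per cell, with shallower gated cells left out, the coefficient of variation of Pmel over cells was 0.963, 1.15, 1.29 and 1.04. This was the highest of the 5 genes with over 8 UMIs per cell (Mlana, Pmel, Dct, Tyrp1 and Gpnmb) except in KO treated. In KO untreated the 10% of these thinned cells with least Pmel had at most 2 UMIs and the 10% with most had at least 53.2. Dct, at 0.489, 0.514, 0.525 and 0.467, and Tyrp1, at 0.539, 0.515, 0.500 and 0.477, varied least. Mlana stood at 0.778, 0.631, 0.773 and 1.07. For Sox10 the variance over the mean was 1.12, 0.940, 0.932 and 0.836, close to the value of 1 that counting alone gives.

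Co-variation was measured as Pearson r across the gated cells of a library, on log2(1 + UMIs per 10000), and is a description with no p-value, since cells of 1 library share their source. Over all 45 pairs the median r was 0.17 over 922 cells of WT untreated, 0.24 over 70 of WT treated, 0.14 over 189 of KO untreated and 0.03 over 50 of KO treated. Over the 15 pairs of genes not used in the gate it was 0.08, 0.22, 0.13 and 0.03. An r over 0.2 was found for 18, 28, 19 and 19 of the 45 pairs.

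**Figure D2:**
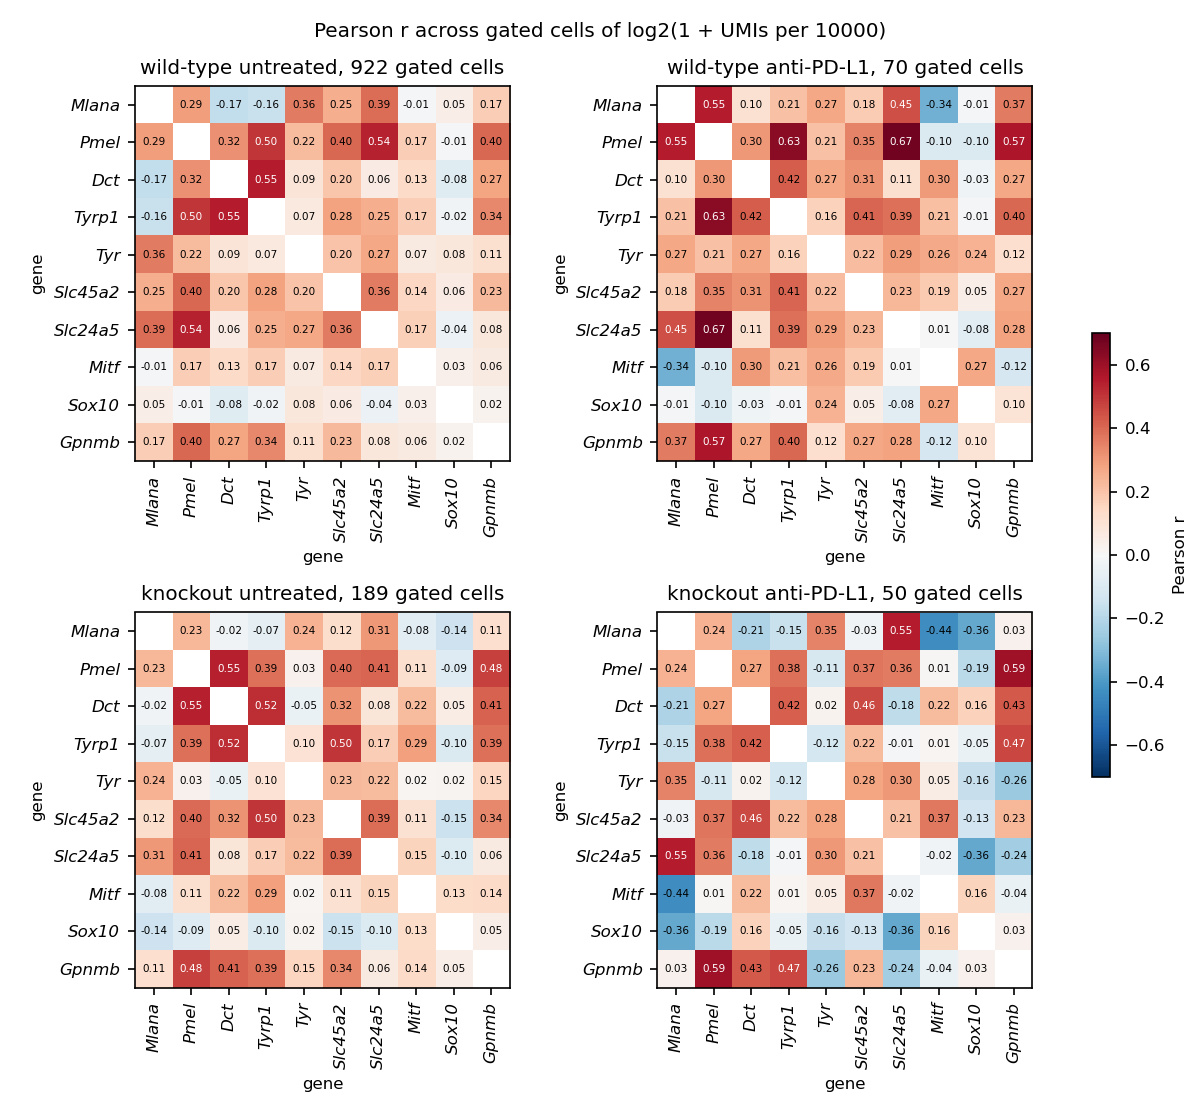
Pearson r between each pair of pigment genes across the gated cells of 1 library, 1 panel per library, with red for positive and blue for negative values. Dct with Tyrp1 and Pmel with Slc24a5, Gpnmb and Tyrp1 are positive in all 4 panels, while every r of Sox10 in WT untreated lies between -0.08 and 0.08.

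The enzymes Dct and Tyrp1 moved together, with r of 0.55, 0.42, 0.52 and 0.42. Pmel went with Slc24a5 (0.54, 0.67, 0.41 and 0.36), with Tyrp1 (0.50, 0.63, 0.39 and 0.38) and with its relative Gpnmb (0.40, 0.57, 0.48 and 0.59). Mlana went with Slc24a5 (0.39, 0.45, 0.31 and 0.55) and with Tyr (0.36, 0.27, 0.24 and 0.35). These pairs were positive in all 4 libraries, but they were not the highest in each: in KO treated Tyrp1 with Gpnmb (0.47), Dct with Slc45a2 (0.46) and Dct with Gpnmb (0.43) were above Dct with Tyrp1. Pmel was positively related to Mlana (0.29, 0.55, 0.23 and 0.24) and to Dct (0.32, 0.30, 0.55 and 0.27).

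Mlana and the enzymes Dct and Tyrp1 were weakly or negatively related. Mlana with Dct gave r of -0.17, 0.10, -0.02 and -0.21, and Mlana with Tyrp1 gave -0.16, 0.21, -0.07 and -0.15. Slc24a5, which went with Mlana, gave 0.25, 0.39, 0.17 and -0.01 with Tyrp1. These genes were selected on their sum, and the part of that selection in these values was not tested. Total UMIs per cell gave r of 0.35, -0.50, 0.16 and 0.16 with Mlana. With Dct they gave -0.28, 0.19, -0.03 and 0.05, and with Tyrp1 -0.14, -0.01, 0.08 and -0.09. The part of depth in the relations between these genes was not tested. Mlana with Mitf, which the gate did not use, gave -0.01, -0.34, -0.08 and -0.44. The negative values of this pair were large only in the libraries of 70 and 50 gated cells. In the library of 70 cells, WT treated, total UMIs gave r of -0.50 with Mlana and 0.53 with Mitf. The part of depth in this pair was not tested.

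Mitf itself was weakly related to the genes whose windows hold the 7 bases. Its r with Tyrp1 was 0.17, 0.21, 0.29 and 0.01, with Dct 0.13, 0.30, 0.22 and 0.22, with Slc24a5 0.17, 0.01, 0.15 and -0.02, and with Tyr 0.07, 0.26, 0.02 and 0.05. Mitf with Sox10 gave 0.03, 0.27, 0.13 and 0.16. Counts of both factors were low, with means at 5000 UMIs per cell of 1.06 to 2.46 UMIs for Mitf and 0.563 to 0.760 for Sox10, and the part of counting error in these values was not tested.

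The clustering, which did not see the 10 genes, split the gated cells into 2 groups. Cluster 0, led by Gsta4, Enpp2 and Ptgds, held 305, 11, 94 and 18 gated cells, and cluster 5, led by Car6 and, among the genes left out of clustering, Mlana, held 616, 58, 95 and 32. Median depth in clusters 0 and 5 was 7899 and 11646.5 UMIs in WT untreated, 25851 and 24551 in WT treated, 11333.5 and 19000 in KO untreated, and 31397 and 32322 in KO treated. The clusters were defined by other genes of the same cells, so their differences are descriptions.

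Mlana and Slc24a5 were higher in cluster 5 in all 4 libraries. Mlana stood at 1492 CPM in cluster 0 and 3858 in cluster 5 of WT untreated, and the log2 folds were 1.37, 1.02, 0.61 and 1.08. For Slc24a5 they were 0.61, 1.17, 0.66 and 1.07. Dct, Tyrp1 and Mitf were lower in cluster 5 in all 4, by log2 -0.58, -0.34, -0.54 and -0.34 for Dct, by -0.49, -0.53, -0.46 and -0.37 for Tyrp1, and by -0.36, -0.39, -0.40 and -0.72 for Mitf. The clusters thus set Mlana and Slc24a5 apart from Dct, Tyrp1 and Mitf. The part of depth in that split was not tested.

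**Figure D3:**
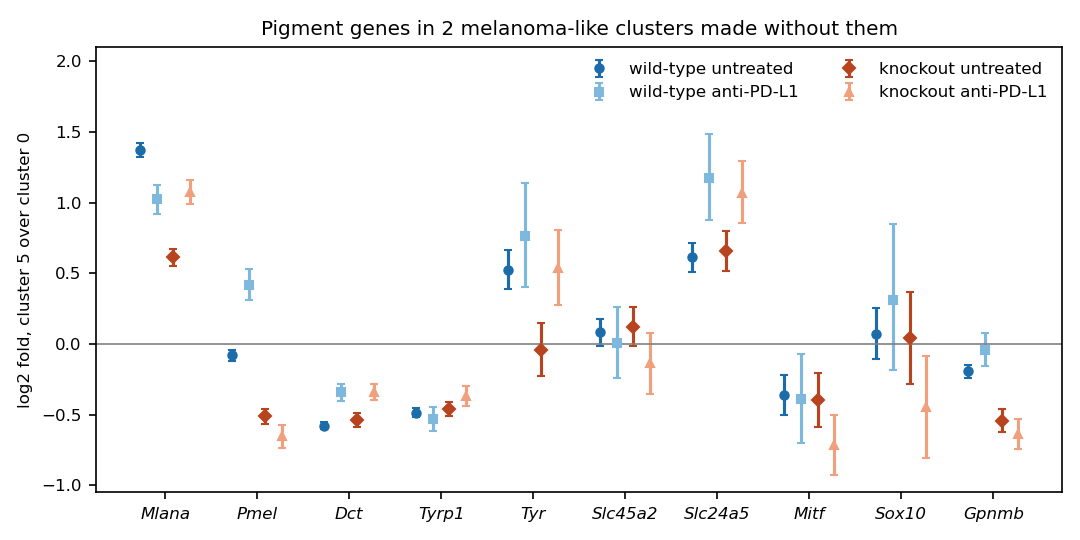
Log2 fold of each pigment gene in gated cells of cluster 5 over cluster 0, by library, with 95% intervals for counting error. Mlana and Slc24a5 lie above 0, and Dct, Tyrp1 and Mitf below 0, in all 4 libraries, while Pmel is positive in 1 library (0.42) and negative in the other 3.

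Pmel did not keep a direction, with log2 folds of -0.08, 0.42, -0.51 and -0.65. Tyr was higher in cluster 5 in 3 libraries and at -0.04 (-0.23 to 0.15) in KO untreated, and Slc45a2 did not differ beyond counting error in any. Part of the negative relation of Mlana with Dct in WT untreated lay between the clusters, since r was 0.18 within cluster 0 and -0.04 within cluster 5. Dct with Tyrp1 stayed at 0.53 and 0.46 within them. Inside clusters 0 and 5 the Mitf genotype fold was log2 0.67 and 0.63 untreated and 0.89 (0.58 to 1.22) and 0.57 (0.36 to 0.77) under anti-PD-L1. The last is under 1.5-fold, and the 0.89 rests on 11 cells of WT treated.

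The summed 10 genes were next set against the fixed lists across gated cells. The list for melanosome structure and transport followed them most closely, with r of 0.57, 0.74, 0.70 and 0.65, although it shares no gene with them. Cd63 alone gave 2540, 2750, 2968 and 2448 of the 4745, 5324, 5745 and 5505 CPM of this list. Its sum thus rests in large part on Cd63. Values for lysosome genes were 0.54, 0.67, 0.59 and 0.47. Positive values were also found for genes linked to MITF (0.49, 0.58, 0.31 and 0.27) and genes of MHC class I and the interferon response (0.31, 0.49, 0.48 and 0.56). Regulators beside MITF were near 0 (0.04, -0.10, 0.02 and -0.05). They summed to only 460, 424, 522 and 514 CPM, and the part of counting error in these values was not tested. G2/M genes were weakly negative (-0.13, -0.23, -0.20 and -0.07). Total UMIs per cell gave -0.05, -0.31, 0.08 and 0.09.

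**Figure D4:**
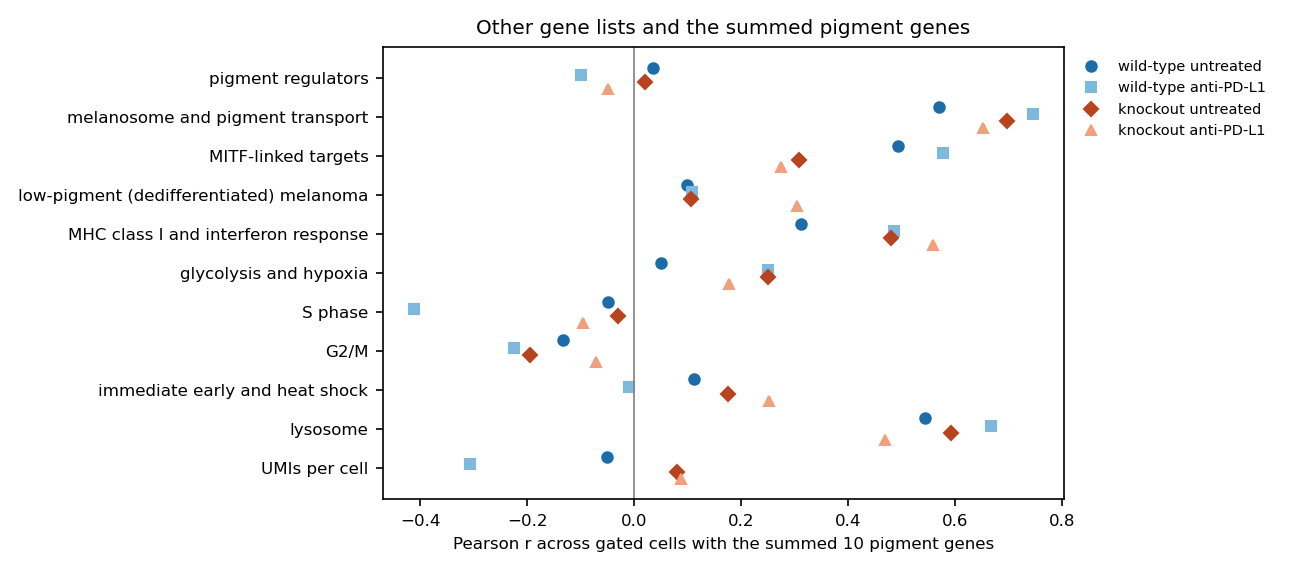
Pearson r across gated cells between the summed 10 pigment genes and each gene list, and total UMIs per cell in the bottom row, 1 symbol per library. The list for melanosome structure and transport lies between 0.57 and 0.74, and the regulators of pigment genes lie between -0.10 and 0.04.

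The 10 genes differed in their relation to the lysosome list. Pmel gave r of 0.58, 0.78, 0.62 and 0.38 with it and Gpnmb 0.44, 0.63, 0.53 and 0.49, whereas Mlana gave 0.08, 0.62, 0.20 and 0.06. Mitf gave 0.09, -0.43, 0.12 and -0.17. Cells with more Pmel or Gpnmb thus had more lysosome transcripts in each of the 4 libraries.

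The 10 genes most like the sum in WT untreated, out of 4341 with a UMI in at least 25% of gated cells, were Bace2, Apoe, Cd63, Ctsd, S100a1, B2m, Hsp90b1, Ptgds, Gpr137b and Psap. Bace2 had r of 0.49 there and 0.69, 0.56 and 0.71 in the other libraries. Cd63, a tetraspanin that sorts PMEL in melanosomes, had 0.45, 0.60, 0.68 and 0.38, and Apoe, a lipid carrier, 0.46, 0.66, 0.59 and 0.54. Hsp90b1 did not keep its relation, with 0.38 there and -0.05 in WT treated. All 10 genes of lowest r coded for ribosomal proteins, led by Rps16 (-0.41, -0.47, -0.36 and -0.38).

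UMIs of the pigment genes were also found in cells that should not express them. Among CD8 T-like cells, 40.2% (37.3 to 43.2) of 1121 cells in WT untreated had at least 1 UMI of the 10 genes, against 17.2% of 1318 in WT treated, 18.98% of 1549 in KO untreated and 20.4% of 1027 in KO treated. Thinned to 2600 UMIs per cell, the shares were 28.5% (25.5 to 31.5), 7.09% (5.73 to 8.66), 10.9% (9.28 to 12.6) and 7.55% (5.99 to 9.36). WT untreated stood apart at equal depth. KO untreated was next, with an interval that overlapped that of KO treated, and both anti-PD-L1 libraries overlapped. In WT untreated 282 T-like cells carried 1 UMI of the 4 gate genes and 72 carried 2 to 4. Median depth of all T-like cells was 3750, 5437.5, 4413 and 6838 UMIs, and 218, 77, 150 and 20 cells were too shallow to be thinned. These shares count Slc24a5, whose UMIs may belong in part to an overlapping gene described below, and which alone was found in 2.33%, 1.69%, 3.57% and 3.18% of thinned cells.

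The level of the gate genes in T-like cells had the same order of libraries as the share of UMIs in gated cells. Gated cells held 64.0%, 16.6%, 22.2% and 13.7% of the UMIs of kept cells, and the 4 gate genes stood at 91.5, 17.1, 26.2 and 13.9 CPM in CD8 T-like cells. The ratio of these, in CPM per percent of UMIs, was 1.43, 1.03, 1.18 and 1.02. Over 4 libraries no relation can be tested. The T-like cells of WT untreated lay mostly in clusters 2 and 3 and those of the other libraries in clusters 4, 7 and 11 to 14. Over the clusters with enough cells the gate genes ranged from 88.3 to 94.1 CPM in WT untreated, from 4.80 to 24.7 in WT treated, from 20.8 to 38.3 in KO untreated and from 12.8 to 17.5 in KO treated. The part of these clusters in the difference between libraries was not tested.

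As a share of the level in gated cells of the same library, the median over the 7, 6, 6 and 6 genes with at least 10 UMIs was 0.772%, 0.122%, 0.197% and 0.0977% in CD8 T-like cells. In macrophage-like cells, of which there were 216, 176, 412 and 181, the 4 gate genes ranged from 1.18% to 1.71%, from 0.152% to 0.533%, from 0.269% to 0.663% and from 0.0710% to 0.403%, the last low value resting on 4 UMIs of Pmel. Together they stood at 220, 57.0, 61.0 and 35.7 CPM in macrophage-like cells, 2.41, 3.34, 2.33 and 2.57 times their level in CD8 T-like cells. UMIs of the gate genes were thus more frequent in macrophage-like than in T-like cells of each library.

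**Figure D5:**
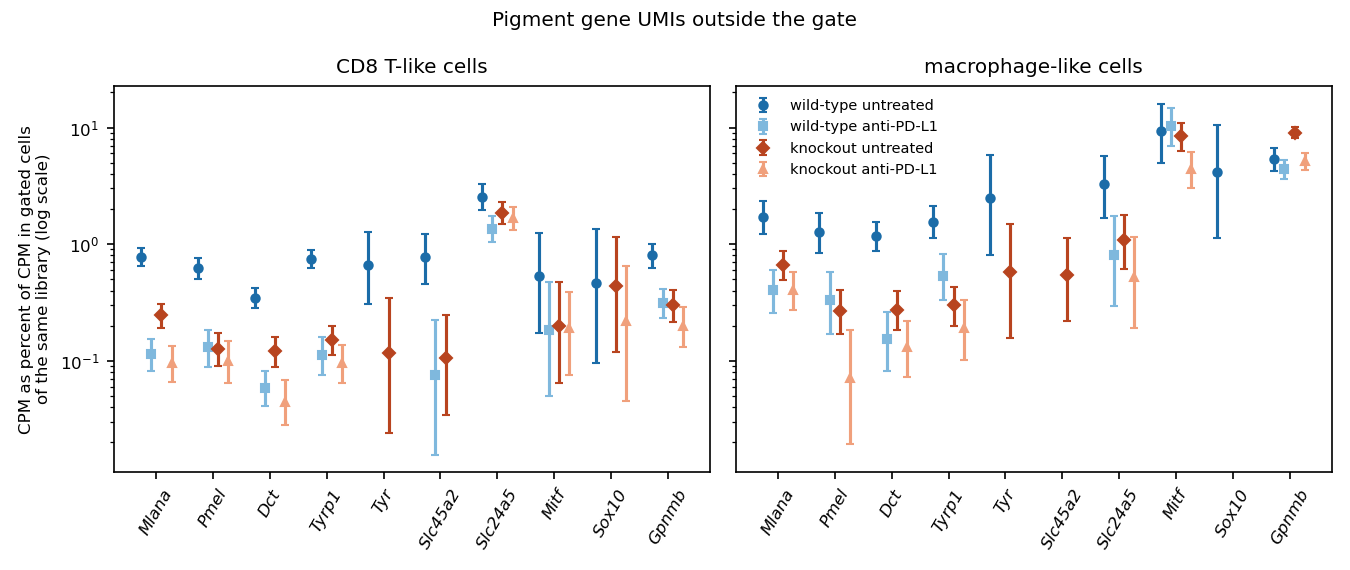
Level of each pigment gene in CD8 T-like and macrophage-like cells as a percent of its level in gated cells of the same library, on a log axis, with 95% intervals for counting error and values under 3 UMIs left out. Slc24a5 stands above the other genes in T-like cells (1.36% to 2.56%), and Mitf and Gpnmb do so in macrophage-like cells (4.38% to 10.3%).

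Slc24a5 did not follow the gate genes in T-like cells. It stood at 13.0, 8.40, 11.9 and 11.1 CPM there, where the gate genes went from 91.5 to 13.9 CPM, and at 2.56% (1.964 to 3.281), 1.36% (1.052 to 1.736), 1.86% (1.5002 to 2.2905) and 1.67% (1.33 to 2.08) of its gated level. Its gene overlaps Myef2, a gene for a nucleic acid binding protein, by 7703 bases. Myef2 stood at 14.5, 12.7, 12.9 and 15.1 CPM in CD8 T-like cells and at 48.5, 47.3, 45.2 and 38.0 CPM in gated cells. How the authors' counting assigned reads in the overlap is not given in the sources used here, so UMIs of the 2 genes cannot be told apart with certainty. In cluster 7, led by mitotic genes, Slc24a5 stood at 14.0, 16.5 and 19.4 CPM in WT treated, KO untreated and KO treated, from 19, 14 and 41 UMIs. In cluster 1, which mitotic genes also lead, it stood at 16.1, 10.8 and 21.9 CPM in WT untreated, WT treated and KO untreated, from 6, 6 and 19 UMIs.

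In macrophage-like cells Gpnmb and Mitf stood apart. Gpnmb was at 101, 90.9, 159 and 89.9 CPM, which was 5.36% (4.20 to 6.74), 4.38% (3.59 to 5.30), 9.04% (8.08 to 10.1) and 5.12% (4.33 to 6.02) of its gated level. Mitf was at 18.0, 27.3, 26.4 and 20.2 CPM, or 9.37% (4.98 to 16.1), 10.3% (6.997 to 14.62), 8.41% (6.32 to 10.99) and 4.38% (3.03 to 6.15). Mlana, in contrast, was at 1.71%, 0.402%, 0.663% and 0.403%. The intervals of the Gpnmb and Mitf levels overlapped over the libraries, except for the higher Gpnmb of KO untreated. Over the 4 libraries the gate genes went from 220 to 35.7 CPM in macrophage-like cells. Mitf rested on 13, 33, 57 and 35 UMIs there. Whether UMIs of Gpnmb and Mitf were made by the macrophage-like cells was not tested. Sox10 had 4, 0, 1 and 0 UMIs in macrophage-like cells and 3, 0, 4 and 3 in CD8 T-like cells, at or near the limit of 3 UMIs that a count of 0 allows.

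In CD8 T-like cells the 4 gate genes did not have the proportions of gated cells. Dct made up 37.8% of gate gene UMIs in gated cells of WT untreated and 22.6% (18.8 to 26.8) in CD8 T-like cells. In WT treated the shares were 39.1% and 24.3% (17.4 to 32.2), in KO untreated 29.3% and 22.5% (17.0 to 28.8), and in KO treated 34.6% and 19.6% (12.7 to 28.2). The share of Dct was lower in T-like cells in all 4 libraries, beyond counting error. Mlana moved the other way, from 20.5% to 27.8% (23.6 to 32.2) in WT untreated and from 22.1% to 34.4% (28.0 to 41.3) in KO untreated, but not beyond counting error in WT treated (26.2% and 31.4%, 23.9 to 39.8) or KO treated (25.04% and 30.4%, 22.0 to 39.8). In macrophage-like cells of WT untreated the shares of all 4 genes were within counting error of those in gated cells, with Dct at 32.1% (24.9 to 39.9). Dct made up 18.8% (10.4 to 30.1), 22.0% (15.2 to 30.0) and 22.6% (12.9 to 35.0) in the macrophage-like cells of the other libraries, beyond counting error below gated cells only in WT treated. In the same cells Mlana was above its gated share in KO untreated, at 40.2% (31.7 to 49.04) against 22.1%. In KO treated its interval was 37.02% to 62.98%, above the gated 25.04%. Tyrp1 was above its gated share in WT treated, at 30.4% (19.9 to 42.7) against 18.04%. Pmel was below it in KO treated, at 6.45% (1.79 to 15.7) against 18.34%, from 4 UMIs. Other shares of Mlana, Tyrp1 and Pmel there were within counting error. Where the UMIs outside the gate came from was not tested.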

How the data were processed

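Members and gene lists were chosen with earlier results of these data known. Single-cell libraries were made with the Chromium 3′ version 2 kit, per the labels' protocols. The authors deposited 1 table of raw UMI counts per library. The submitters' processing notes list the build mm10 and the tools bedtools, Bowtie2, DESeq2, Genrich 0.5, HISAT2, HTSeq and Trim Galore 0.5.0, with no role. Which of them made these tables is not given in the sources used here. Tables list most barcodes in 2 versions with other counts; the version with 2 hyphens was used. Cells of at least 500 genes and at most 10% mitochondrial UMIs were kept, and doublets were not removed. Cells were clustered without the 10 genes on 2000 variable genes, 30 components and 15 neighbours (scanpy 1.11.5, Leiden, resolution 1.0) and named from marker lists. The melanoma marker list includes genes of the 10. Folds have exact conditional binomial intervals and shares Clopper-Pearson ones (scipy 1.17.1). Scripts were tested on simulated data. The rule for naming genes took all 10 members, the up to 4 genes of highest mean CPM in each list, and the 10 highest and 10 lowest r. Not all of the genes it took are given in the text. Alternatives, among them TMM factors (edgeR 4.0.16), were run, and 2 of them, leaving out the highest cell and thinning for folds, were chosen after seeing the data. Loci and promoter sequences are from RefSeq on GRCm38.p6.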

Additional observations from a re-analysis of the deposited data

Results flagged for a closer look

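For 2 genes the genotype comparison pointed in opposite directions without and with anti-PD-L1, each beyond counting error. The difference between the comparisons was not tested, since each rests on 1 library per group. Mlana in gated cells was higher in knockout than in wild-type without treatment, at log2 0.19, and lower under anti-PD-L1, at -0.093. Sox10 was lower in knockout without treatment, at log2 -0.24, and higher under anti-PD-L1, at 0.30. For Mlana, the fold inside clusters 0 and 5 was 0.91 and 0.15 without treatment and 0.02 and 0.07 under anti-PD-L1, so the negative sign was not present within either cluster. For Sox10 the folds inside clusters 0 and 5 were -0.21 and -0.24 without treatment and 0.83 and 0.07 under anti-PD-L1. With the first listing of barcodes the Sox10 fold under anti-PD-L1 was 0.01.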

How the results depend on the processing

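No paired analysis was possible because each group is 1 library. The Mitf genotype folds over all gated cells stayed past 1.5-fold in each of the 10 alternatives run, from log2 0.59 to 0.84 untreated and from 0.73 to 1.05 under anti-PD-L1. With at least 1000 genes and at most 5% mitochondrial UMIs per cell, 2 genes passed for genotype untreated (Mitf and Pmel), 2 for treatment in wild-type (Mlana and Mitf) and 2 for treatment in knockout (Mitf and Sox10). That filter gave gated shares of 37.9%, 3.40%, 5.06% and 1.90% and a thinned share of T-like cells with a UMI of 9.08% in WT treated. For treatment in knockout, TMM factors gave 2 genes (Mitf and Sox10), and the first listing, the removal of gated cells with T cell or C1q UMIs, and thinning to 5000 UMIs gave 1 each (Mitf). The mean over cells gave 1 gene for treatment in wild-type (Mlana). Over all genes, the calls rose from 594, 850, 353 and 397 (in the order genotype untreated, genotype under anti-PD-L1, treatment in wild-type, treatment in knockout) to 2560, 3011, 2415 and 2616 with no floor on the level and to 1080, 1915, 1325 and 1345 after thinning. They rose to 835 for treatment in wild-type with the mean over cells and to 647 for treatment in knockout with the stricter filter. Mlana for treatment in knockout turned from 0.26 to -0.14 with the stricter cell filter, and Pmel for treatment in wild-type, at 0.02, was -0.16 without the highest cell. Without the 5% of T-like cells with most gate gene UMIs, the median percent of the gated level was 0.560, 0.0652, 0.0958 and 0.0694. It was 0.0859 in WT treated in the first listing and 0.147 there with a gate of 40 UMIs, and 0.176 in KO untreated for cells chosen by T cell UMIs. Thinning to 1500 UMIs gave shares of 15.6%, 4.93%, 7.49% and 4.19%, and no thinning gave 40.2%, 17.2%, 18.98% and 20.4%. The cause of these shifts was not tested, other than the depth set by thinning. The median r of all pairs ranged from -0.02 to 0.20 over the alternatives in KO treated, which had 50 gated cells.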
